A study of Mus musculus with 16 samples.

Results

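Livers of the genotype Rassf1a-/- Sav1+/-, called the double genotype here, were set against wild-type livers: 4 arrays against 4, out of 16 arrays in the series. The arrays were chosen by their genotype labels alone. RNA of mouse liver had been hybridised to whole-transcript gene arrays in 4 genotypes of the 129 strain, with 4 arrays each: Rassf1a-/- Sav1+/-, Rassf1a-/-, Sav1+/- and wild type. The double genotype lacks Rassf1a on both alleles and Sav1 on 1 allele, and wild type carries neither change. The labels used here name neither the sex, the age nor the time of day at sampling, nor whether the alleles are lost in all cells. They also do not say whether the 4 arrays of a genotype are 4 animals, so p-values reflect only how far these samples spread, which may be technical. Of 19938 genes with a probe set naming exactly 1 gene, 13152 passed the filter on low signal and were tested.

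Rassf1a is the long isoform of a RAS-association domain gene that is silenced in many tumours. Its protein binds microtubules and the MST kinases. Sav1 encodes the scaffold that holds the MST kinases to the LATS kinases in the Hippo pathway, which restrains YAP and limits liver size. Several of the called genes with the largest differences belong to another system, the circadian clock. In liver, the BMAL1 and CLOCK proteins activate the Per, Cry and Ciart genes and the PAR bZIP factors, whose proteins repress BMAL1 and CLOCK or act on metabolic genes, so that these genes peak at different times of day.

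Signals are log2 values as deposited, given per array in the order of replicates 1 to 4, and a difference of 1 is a doubling of signal. Replicate numbers follow the order of the arrays in the series, are not labels and pair no arrays across genotypes. Sav1, the targeted gene that can check the labels, had signals of 7.63, 7.73, 7.30 and 7.96 in the double genotype, against 8.55, 8.37, 8.61 and 8.60 in wild type. All 4 double-genotype arrays lay below all 4 wild-type arrays, so the labels and the targeted gene go the same way. Sav1 fell by 0.88 on the log2 scale (SE 0.17, 1.84-fold, limma adjusted p = 0.0230). The call passed in 10 of 16 fits that left out 1 array (highest adjusted p = 0.0820, without wild-type replicate 4). The probe set of Rassf1 had signals of 7.71, 7.50, 7.56 and 7.48 in the double genotype, against 7.42, 7.21, 7.55 and 7.59 in wild type. The groups overlapped (difference 0.12, SE 0.19, adjusted p = 0.859), and a probe set for the whole gene does not measure the lost isoform. Of the 20 tested genes nearest to Sav1 in the gene order, 10 on each side, none passed limma's test at adjusted p (median difference 0.09, smallest adjusted p = 0.177), and none of the 20 around Rassf1 did (median 0.00, smallest adjusted p = 0.160).

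The arrays also differed in Y-linked signal, which moves with the groups. In 5 of the 16 arrays the mean of the Y-linked genes Eif2s3y, Kdm5d and Uty lay above Xist, the X inactivation transcript: double-genotype replicates 1 and 2, Rassf1a-/- replicate 2 and Sav1+/- replicates 3 and 4, and none of the wild-type arrays. Genes known to be higher in male liver followed the same split. The mean of 20 such genes was 12.32 and 12.41 in double-genotype replicates 1 and 2 and 9.24 and 9.11 in replicates 3 and 4, against 8.59 to 9.08 in wild type. The mean of 20 female-biased genes was 6.74, 6.53, 10.85 and 11.17 in the double genotype, against 10.42 to 11.08 in wild type. No gene of either list passed the test, and the median differences of 1.45 and -1.64 became 0.22 and 0.17 without the 2 high-Y double-genotype arrays. A comparison without those 2 arrays, chosen after seeing the data, leaves 2 arrays against 4. Its values are given beside differences from wild type and list medians that it moved by over 1.5 times, other than medians under 0.10 in size, and beside some further genes.

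In all, limma called 108 genes between the double genotype and wild type at an adjusted p under 0.05, 0.821% of the genes tested. Of these 44 were higher (0.335%) and 64 were lower (0.487%), and 17 of the higher and 23 of the lower genes differed by at least 1 on the log2 scale. The 4 arrays of each group lay wholly apart for 107 of the 108, all but Tmie. Over all tested genes the groups lay apart in 10.8%, upward in 6.28% and downward in 4.49%, and the median difference was 0.051. Differences were positive in 58.7% of all tested genes. Without the 2 high-Y arrays the median difference was 0.84 for the higher and -0.76 for the lower genes, against 0.90 and -0.84 with all arrays. Directions had to stay wherever the groups lay apart, so they are no check. In that smaller fit 8 genes passed: Arntl, Ndrg1, Denn2b, Ddc and Dtx4 among the higher and Ciart, Usp2 and Wee1 among the lower. Single arrays moved the count by more than 1.5 times. It was 53, 40, 61 and 173 without double-genotype replicates 1, 2, 3 and 4, and 55, 58, 59 and 39 without wild-type replicates 1, 2, 3 and 4. Leaving out Sav1+/- replicate 1 or 2, which enter only through the shared estimate of the spread, gave 209 and 172 genes.

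**Figure D1:**
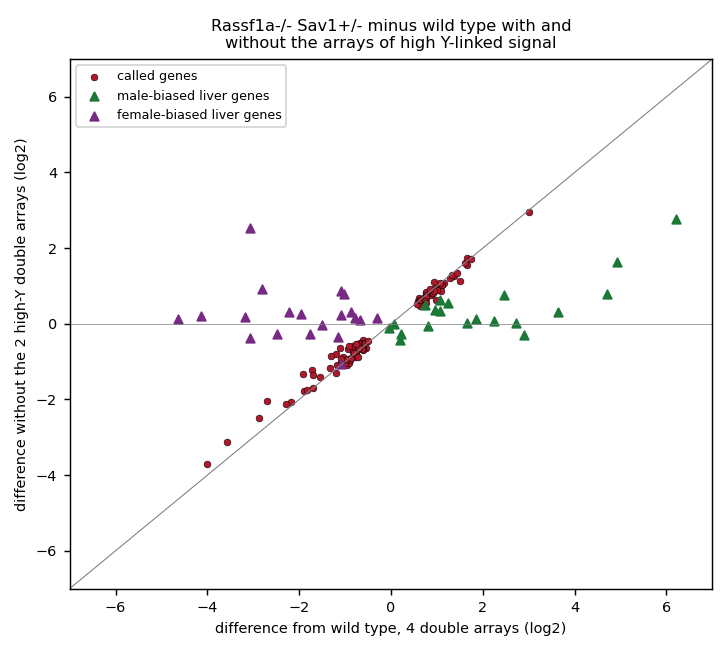
Each point is a gene, with its log2 difference between the double genotype and wild type over all arrays on the horizontal axis and without the 2 high-Y double-genotype arrays on the vertical axis; the diagonal marks equal values. The called genes (red), most of which were bound to keep their sign because their groups lay apart, have medians of 0.84 (higher) and -0.76 (lower) without those arrays. The medians of the male-biased (green) and female-biased (purple) liver genes, 1.45 and -1.64 over all arrays, are 0.22 and 0.17 without them.

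The activating arm of the clock was higher in the double genotype. Both of its measured genes were called, Arntl, which encodes BMAL1, and Clock, its partner, where 0.335% of all genes rose. The clock lists were chosen with earlier results of these data known, so their counts are a description only. The labels do not give the time of day at sampling, so genotype and sampling time cannot be told apart for the clock and rhythmic genes. Arntl had signals of 9.41, 10.15, 9.97 and 9.34 in the double genotype, against 6.39, 7.80, 6.47 and 6.19 in wild type. The lowest double-genotype array stood well above the highest wild-type array. Arntl rose by 3.01 (SE 0.34, 8.05-fold, limma adjusted p = 0.000425), with a difference of 2.95 without the 2 high-Y arrays (adjusted p = 0.0155). Because 3 of the wild-type arrays were under the filter level, the size of the Arntl fold is uncertain. Clock had signals of 11.03, 11.20, 10.72 and 11.03 in the double genotype, against 9.56, 9.86, 9.51 and 9.57 in wild type. These groups were apart too, and Clock rose by 1.37 (SE 0.21, 2.59-fold, adjusted p = 0.00467), which was 1.25 and did not pass without the 2 high-Y arrays (adjusted p = 0.144).

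The repressing arm was lower. Of 6 measured repressor genes, 4 fell (Ciart, Per1, Per2 and Per3), where 0.487% of all genes fell. The other 2, Bhlhe40 and Cry2, had differences of -0.89 (adjusted p = 0.0714, and -0.57 without the 2 high-Y arrays) and -0.39 (adjusted p = 0.311). Of the 4, only Ciart passed without the 2 high-Y arrays. Ciart, whose product CHRONO represses BMAL1 and CLOCK, had signals of 6.66, 5.08, 4.84 and 8.08 in the double genotype, against 9.93, 9.86, 10.44 and 10.50 in wild type. It had the largest fall among the called genes, by 4.02 on the log2 scale (SE 0.50, 16.2-fold, adjusted p = 0.000739), with 3 double-genotype arrays under the filter level. Per3 had signals of 7.82, 7.19, 6.83 and 8.84 in the double genotype, against 10.03, 9.71, 9.71 and 10.39 in wild type, and fell by 2.29 (SE 0.32, adjusted p = 0.00219). Per3 was under the filter level in 2 double-genotype arrays. Per2 had 8.37, 8.01, 7.59 and 8.88, against 9.97, 9.63, 9.85 and 10.25 in wild type, and fell by 1.71 (SE 0.28, adjusted p = 0.00597). Per1 had 8.92, 7.07, 8.19 and 9.20, against 10.33, 9.71, 9.94 and 10.20 in wild type, and fell by 1.70 (SE 0.37, adjusted p = 0.0368), a call that passed in 7 of 16 fits that left out 1 array (highest adjusted p = 0.108, without wild-type replicate 1). The double-genotype arrays were not alike in these genes: replicates 1 and 4 were the nearest to wild type in each of the 4, and in Arntl as well. The high-Y arrays are replicates 1 and 2, and the source of the division was not tested. With mean Y-linked signal as a covariate in limma, Ciart, Per2 and Per3 passed and Per1 did not (-1.50, adjusted p = 0.117).

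The output factors and nuclear receptors of the clock gave 3 calls. Of 4 measured genes in the group of PAR bZIP factors and Nfil3, Dbp and Tef fell, where 0.487% of all genes fell. Hlf and Nfil3 had differences of -0.31 (adjusted p = 0.396) and 0.52 (adjusted p = 0.441). Dbp, an activator of many rhythmic liver genes, had signals of 10, 7.80, 8.02 and 10.26 in the double genotype, against 11.33, 10.54, 11.30 and 11.70 in wild type. Replicates 1 and 4 again came close to the lowest wild-type array, and Dbp fell by 2.19 (SE 0.46, limma adjusted p = 0.0328). The call passed in 11 of 16 fits that left out 1 array (highest adjusted p = 0.138, without double-genotype replicate 2). Tef had 9.74, 9.28, 9.24 and 10.34, against 11.13, 10.96, 11.17 and 11.54 in wild type, and fell by 1.55 (SE 0.20, adjusted p = 0.00132). With mean Y-linked signal as a covariate Tef passed (adjusted p = 0.00545) and Dbp did not (adjusted p = 0.0531). Nr1d1, which encodes the repressor REV-ERB alpha, had 11.96, 11.99, 11.51 and 12.07 in the double genotype, against 10.87, 10.82, 11.19 and 11.03 in wild type. It rose by 0.90 (SE 0.19, adjusted p = 0.0363), a call that passed in 8 of 16 fits that left out 1 array (highest adjusted p = 0.144, without double-genotype replicate 2) and was lost when array medians were subtracted (0.86, adjusted p = 0.0653). Nr1d1 also did not pass with the Y-linked covariate (adjusted p = 0.114). Its paralog Nr1d2 was at -0.42 (adjusted p = 0.319) and the opposing receptor gene Rora at 0.38 (adjusted p = 0.412), or 0.19 without the 2 high-Y arrays. The 7 measured kinases and ubiquitin ligases that act on clock proteins had no call, with a median of 0.10, or 0.17 without the 2 high-Y arrays. Gsk3b was lowest in p among them (0.36, adjusted p = 0.256), at 0.17 without those arrays.

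Promoters of 5 of these genes are shown because each holds a short element through which clock proteins act. They were chosen for holding one: in the windows searched, Clock, Dbp, Nr1d1, Usp2, Nampt and Upp2 held none of the 3 elements. The set searched was a chosen one that left out the called rhythmic genes Marveld1, Tspan4, Tars and Avpr1a. Of its 11 called genes with a promoter sequence, 3 held an E-box, 1 a D-box and 1 a receptor core. RefSeq promoters of the build GRCm38.p6 were used, 250 bases before to 50 bases from the start. Both strands were searched for the E-box CACGTG, bound by BMAL1 with CLOCK, the D-box TTATGTAA, bound by the PAR bZIP factors, and the core TAGGTCA, bound by REV-ERB and ROR receptors. None of the 3 patterns contains another. Of 32851 mouse promoters of this length, 7.15% held the E-box, 0.938% the D-box and 2.61% the receptor core. Counted by gene among the genes tested, the shares were 11.3%, 0.844% and 2.59%. Capitals mark the matches, which are descriptions and not sites shown to be bound.
Ciart, minus strand, chr3:95882179-95882478: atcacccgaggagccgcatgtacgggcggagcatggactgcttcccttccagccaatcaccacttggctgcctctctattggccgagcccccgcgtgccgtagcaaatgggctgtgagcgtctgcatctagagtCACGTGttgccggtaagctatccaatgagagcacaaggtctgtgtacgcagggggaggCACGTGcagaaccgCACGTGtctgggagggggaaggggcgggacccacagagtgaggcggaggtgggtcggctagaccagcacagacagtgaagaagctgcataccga
Per1, plus strand, chr11:69098699-69098998: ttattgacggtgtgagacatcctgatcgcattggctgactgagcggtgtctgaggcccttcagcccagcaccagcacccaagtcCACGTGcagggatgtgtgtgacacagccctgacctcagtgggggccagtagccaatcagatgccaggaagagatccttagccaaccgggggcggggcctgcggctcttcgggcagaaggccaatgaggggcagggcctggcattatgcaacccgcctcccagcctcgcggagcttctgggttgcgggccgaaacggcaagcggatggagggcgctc
Tef, plus strand, chr15:81802423-81802722: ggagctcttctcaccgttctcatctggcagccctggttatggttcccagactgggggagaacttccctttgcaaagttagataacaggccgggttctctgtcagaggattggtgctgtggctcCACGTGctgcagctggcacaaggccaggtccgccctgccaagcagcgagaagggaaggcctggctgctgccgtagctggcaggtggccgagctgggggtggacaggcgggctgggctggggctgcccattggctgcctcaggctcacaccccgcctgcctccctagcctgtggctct
Per3, minus strand, chr4:151044616-151044915: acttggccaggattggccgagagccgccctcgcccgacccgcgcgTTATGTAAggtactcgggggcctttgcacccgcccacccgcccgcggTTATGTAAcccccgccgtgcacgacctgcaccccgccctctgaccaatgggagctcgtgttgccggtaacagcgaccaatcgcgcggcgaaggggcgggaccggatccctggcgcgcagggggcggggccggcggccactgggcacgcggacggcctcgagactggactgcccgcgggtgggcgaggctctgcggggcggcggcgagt
Arntl, plus strand, chr7:113207261-113207560: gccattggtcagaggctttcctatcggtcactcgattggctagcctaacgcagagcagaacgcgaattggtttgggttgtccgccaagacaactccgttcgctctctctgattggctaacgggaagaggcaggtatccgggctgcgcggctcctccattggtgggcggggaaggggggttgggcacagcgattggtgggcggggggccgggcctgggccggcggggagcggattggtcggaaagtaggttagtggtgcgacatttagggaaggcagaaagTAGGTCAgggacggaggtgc

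The promoter of Ciart, the called gene with the largest fall, held 3 E-boxes at 116, 58 and 44 bases before the start. Per1 had 1 E-box at 166 bases before the start in 1 of its 2 promoters, and this promoter of Tef had 1 at 127 bases before it. Per3 had no E-box in this window and held 2 D-boxes, at 205 and 158 bases before the start. Of the PAR bZIP factors that bind this element, Dbp and Tef fell, and Hlf did not pass (-0.31, limma adjusted p = 0.396). Whether they act on Per3 here was not tested. Arntl, the called gene with the largest rise, held the receptor core 30 bases after the start, in 1 of its 2 promoters in the table. Of the promoters of the lower genes 17.6% held an E-box, against 12% for the higher genes and 9.52% for all tested genes, given as counts of letters with no test.

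**Figure D2:**
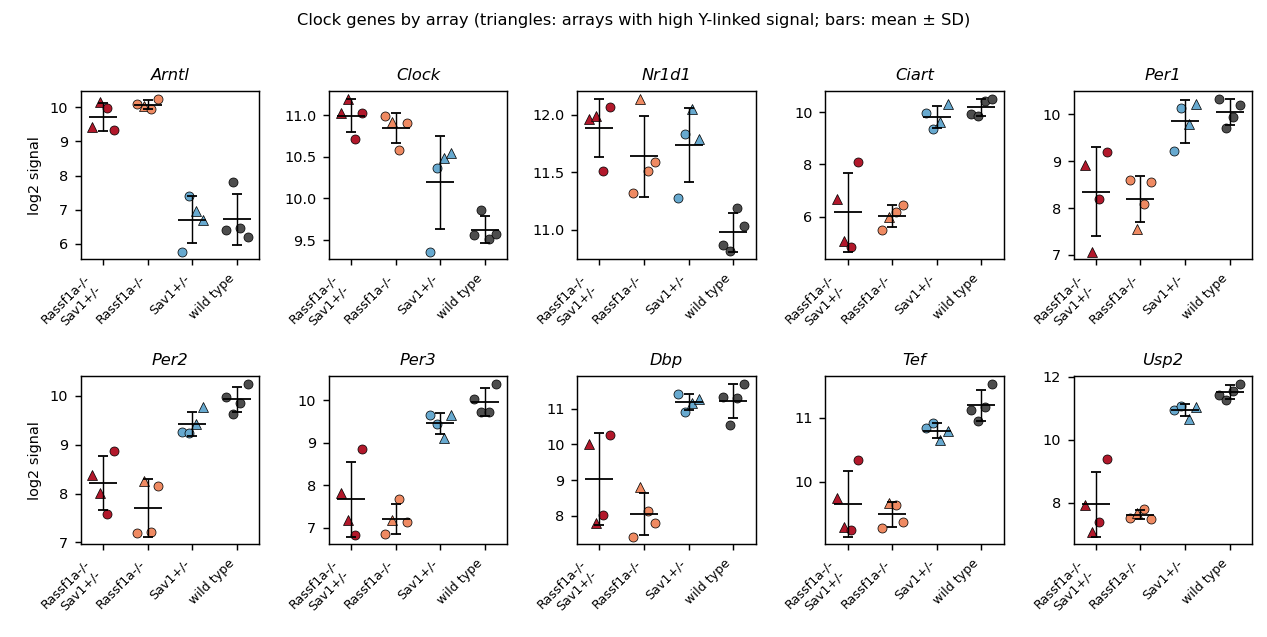
Deposited log2 signal of 10 clock genes in each array, by genotype, with means and SD (n = 4); triangles mark arrays of high Y-linked signal. Arntl, Clock and Nr1d1 are higher in the 4 double-genotype arrays than in the 4 wild-type arrays, the other 7 genes are lower, and double-genotype replicate 4 is the highest of its group for Ciart, at 8.08, and for Dbp, at 10.26.

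Genes with daily rhythms in liver that lie downstream of the clock changed in both directions. Of 22 measured, 6 fell and 2 rose, where 0.487% of all genes fell and 0.335% rose. The list's median was -0.47 against 0.051 over all genes. With array medians subtracted 6 of the 22 were called. This list, like the others, was chosen with earlier results of these data known, so its counts are a description only. Usp2, a deubiquitinase, had signals of 7.93, 7.08, 7.39 and 9.38 in the double genotype, against 11.43, 11.27, 11.56 and 11.78 in wild type. Every double-genotype array was far below wild type, and Usp2 fell by 3.57 (SE 0.33, 11.8-fold, limma adjusted p = 5.97e-05), with 2 double-genotype arrays under the filter level. Wee1, a kinase that holds back entry into mitosis, had 7.27, 5.97, 6.88 and 7.96, against 9.50, 9.34, 10.17 and 10.58 in wild type, and fell by 2.88 (SE 0.34, 7.34-fold, adjusted p = 0.000556), with 3 double-genotype arrays under that level, so the size of both folds is uncertain. Usp2 and Wee1 also passed without the 2 high-Y arrays, at -3.13 (adjusted p = 0.00387) and -2.48 (adjusted p = 0.0139).

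The other falls among the rhythmic outputs were smaller. Nampt, the rate-limiting enzyme that makes NAD from nicotinamide, had 9.61, 9.60, 9.68 and 10.14, against 11.21, 10.80, 10.81 and 11.48 in wild type, and fell by 1.32 (SE 0.20, adjusted p = 0.00320). Upp2, a uridine phosphorylase, fell by 1.30 (adjusted p = 0.0181; -0.86, adjusted p = 0.446, without the 2 high-Y arrays), Marveld1 by 0.76 (adjusted p = 0.0126) and Tspan4, a tetraspanin, by 0.73 (adjusted p = 0.0236). Tars, a threonyl-tRNA synthetase, rose by 0.93 (adjusted p = 0.0321) and Avpr1a, the vasopressin receptor of liver, rose by 0.75 (adjusted p = 0.0364). The Avpr1a call passed in 8 of 16 fits that left out 1 array (highest adjusted p = 0.158, without double-genotype replicate 2).

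Beta tubulins, the microtubule subunits named in the study's title, were higher in the double genotype, and the title makes their direction no independent evidence. Of 5 measured, 4 rose, against 0.335% of all genes, and none of the 4 passed without the 2 high-Y arrays. Tubb2a had signals of 10.08, 10.91, 10.92 and 10.34 in the double genotype, against 8.15, 9.79, 8.96 and 8.70 in wild type, and rose by 1.66 (SE 0.27, 3.17-fold, limma adjusted p = 0.00587). Tubb2b had 8.22, 8.89, 8.63 and 8.36, against 5.91, 7.73, 7.04 and 6.45 in wild type, and rose by 1.74 (SE 0.28, 3.34-fold, adjusted p = 0.00587). The groups were apart for both, but these genes are near-identical copies whose probes may share signal, and Tubb2b was under the filter level in 3 wild-type arrays. Tubb1, the isotype of platelets, had 8.93, 8.88, 9.08 and 8.99, against 7.75, 8.51, 8.46 and 7.79 in wild type, and rose by 0.84 (SE 0.17, adjusted p = 0.0230). Tubb5, the common isotype of most tissues, had 11.54, 11.41, 11.26 and 11.17, against 10.53, 10.57, 10.82 and 10.51 in wild type, and rose by 0.74 (SE 0.14, adjusted p = 0.0148). Wild-type arrays spread more than double-genotype arrays for Tubb1, with an SD of 0.42 against 0.08 in the double genotype. Tubb6 was at 9.05, 8.90, 8.95 and 9.16, against 8.37, 9.01, 8.74 and 8.36 in wild type, with overlap and a difference of 0.40 (adjusted p = 0.344).

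No other tubulin passed, which for so few genes is near the 0.821% called over all genes. The 8 measured alpha, gamma, delta and epsilon tubulins had a median of 0.12 (0.06 without the 2 high-Y arrays), led in p by Tuba4a at 0.50 (adjusted p = 0.193). Of 14 tubulin folding and microtubule-associated genes, 10 were positive, against 58.7% of all genes, with a median of 0.24 (0.11 without those arrays). Map1s came nearest to the threshold at 0.56 (adjusted p = 0.0628).

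The Hippo pathway outside Sav1 gave no call. With 0.821% of all genes called, no call is near that share for lists of this size. Of 27 measured Hippo components Sav1 alone passed, 20 were positive, against 58.7% of all genes, and the median was 0.09. Stk4, which encodes the kinase MST1, was at 0.44 (adjusted p = 0.165). None of 16 YAP target genes passed (median 0.16). Ccn2, a classic YAP target, had a difference of 0.81 (adjusted p = 0.326). Tbk1, the innate immune kinase named in the study's title, had signals of 8.33, 8.32, 7.73 and 8.57 in the double genotype, against 8.23, 8.06, 8.19 and 8.53 in wild type. The groups overlapped, with a difference of -0.02 (SE 0.26, adjusted p = 0.986). Its sign was not settled, being 0.15 without double-genotype replicate 3 and 0.08 without wild-type replicate 4. Of 12 genes for Tbk1 and its partners none passed, and Ikbke, the related kinase, was at 0.66 (adjusted p = 0.174).

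Thrsp, Chka and Angptl4 were the called genes of the lipid lists. Thrsp, which encodes the lipogenic factor Spot14, had signals of 10.70, 10.35, 10.58 and 10.75 in the double genotype, against 12.19, 12.66, 12.21 and 12.65 in wild type. The 4 double-genotype arrays were tight and all far below wild type, and Thrsp fell by 1.83 (SE 0.25, 3.57-fold, limma adjusted p = 0.00170). It was the only call among 26 genes of fatty acid and triglyceride synthesis, whose median was -0.04. Of 31 PPAR alpha targets and fatty acid oxidation genes, 27 were negative, with a median of -0.32, where 58.7% of all genes were positive. The 1 that passed was Angptl4, an inhibitor of lipoprotein lipase, which fell by 0.91 (adjusted p = 0.0403). Its call passed in 6 of 16 fits that left out 1 array (highest adjusted p = 0.158, without double-genotype replicate 2). The median of this list was -0.16 without the 2 high-Y arrays. Chka, the choline kinase that starts phosphatidylcholine synthesis, had 9.54, 10.47, 10.03 and 9.56, against 8.30, 8.49, 8.01 and 8.20 in wild type. It rose by 1.65 (SE 0.24, 3.14-fold, adjusted p = 0.00234), the only call of 15 genes of that pathway. The 20 cholesterol synthesis genes had no call and a median of 0.02.

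Nuclear receptors for foreign compounds were lower, while their targets were not called. Nr1i2, which encodes PXR, had signals of 9.85, 10.09, 10.16 and 10.43 in the double genotype, against 11.01, 10.77, 11.01 and 11.11 in wild type, and fell by 0.84 (SE 0.13, limma adjusted p = 0.00487). Nr1i3, which encodes CAR, had 10.44, 10.22, 10.72 and 10.98, against 11.47, 11.26, 11.40 and 11.56 in wild type, and fell by 0.83 (SE 0.15, adjusted p = 0.0147). Both sets of arrays were apart, and the high-Y double-genotype arrays were the lowest 2 for each gene, with differences of -0.68 and -0.58 when they were left out. The whole list of 22 genes had a median of -0.02, and Cyp2b10, a CAR target, had a difference of 1.74 that did not pass (adjusted p = 0.242) and was 1.01 without the 2 high-Y arrays. Of 21 bile acid genes none passed. Cyp8b1, which sets the ratio of bile acids, stood at 1.09 (adjusted p = 0.0640), and Slc51b, a subunit of an export transporter, at -1.31 (adjusted p = 0.0525).

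Several enzymes of mitochondria and cofactors changed one by one, where 0.335% of all genes rose and 0.487% fell. Clpx, the unfoldase of a matrix protease that also acts on haem synthesis, had signals of 10.66, 11.04, 10.74 and 10.69 in the double genotype, against 9.46, 9.61, 9.29 and 9.63 in wild type. It rose by 1.29 (SE 0.17, 2.44-fold, limma adjusted p = 0.00153). Alas1, the first enzyme of haem synthesis, was at -0.96 without passing (adjusted p = 0.236). In the coenzyme Q list of 12 genes, Coq10b, a carrier of coenzyme Q, had 8.18, 7.39, 7.21 and 8.79, against 10.01, 9.41, 10.03 and 9.69 in wild type, and fell by 1.89 (SE 0.29, adjusted p = 0.00419). Coq10b was under the filter level in 2 double-genotype arrays. Coq8a, an atypical kinase needed for coenzyme Q synthesis, rose by 0.77 (adjusted p = 0.0126). Of 20 NAD genes, Nampt fell as above and Nmrk1, which uses nicotinamide riboside, fell by 1.72 (SE 0.28, 3.29-fold, adjusted p = 0.00630). Nmrk1 had 8.96, 8.71, 9.52 and 10.09, against 11.01, 10.83, 10.93 and 11.38 in wild type, again lowest in the 2 high-Y arrays, and its difference was -1.23 without them. Citrate synthase, Cs, rose by 0.63 (adjusted p = 0.0229) and Mcu, the pore of the calcium uniporter, by 0.76 (adjusted p = 0.00803).

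**Figure D3:**
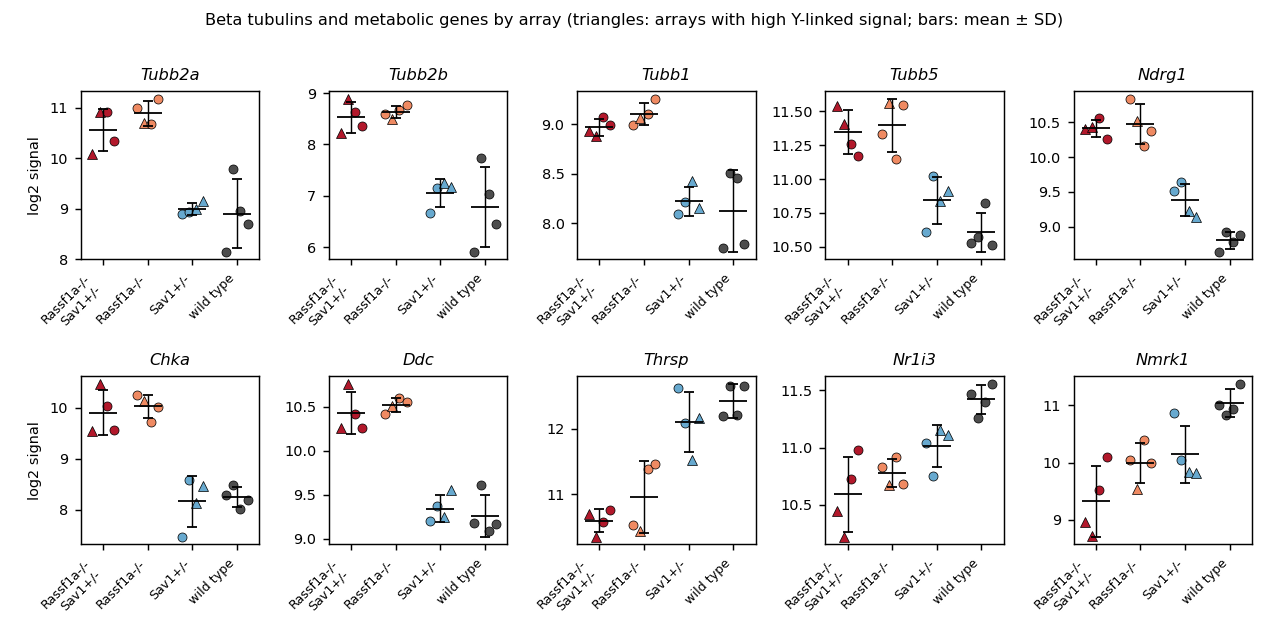
Deposited log2 signal of 4 beta tubulins and 6 further called genes in each array, by genotype, with means and SD (n = 4); triangles mark arrays of high Y-linked signal. Tubulins, Ndrg1, Chka and Ddc are higher and Thrsp, Nr1i3 and Nmrk1 lower in all 4 double-genotype arrays than in wild type, and the wild-type arrays spread widely for Tubb2b (SD 0.78) but not for Tubb5 (SD 0.14).

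Genes for small subunits of mitochondria and ribosomes lay lower in the double genotype by small amounts, with few single calls. Over all genes 58.7% of differences were positive. Of 71 respiratory chain subunits, 61 were negative, the median was -0.23 and 1 passed, and the arrays of the groups lay apart downward for 23, against 4.49% of all genes. Ndufb2, a complex I subunit, had signals of 9.86, 9.72, 10 and 9.75 in the double genotype, against 10.84, 11.27, 10.78 and 10.76 in wild type, and fell by 1.08 (SE 0.18, 2.12-fold, limma adjusted p = 0.00622). The mean of the 71 was 11.57, 11.44, 11.65 and 11.59 in the double genotype, against 11.76, 11.86, 11.68 and 11.81 in wild type, so that the lowest wild-type array was just above the highest double-genotype array. Of 54 cytosolic ribosomal proteins none passed, 51 were negative and the median was -0.23, with means of 11.78, 11.41, 11.76 and 11.72 against 11.85, 11.97, 11.84 and 11.94 in wild type. Rps14, a small-subunit protein, came nearest to the threshold at -0.69 (adjusted p = 0.0813). The medians of both lists kept their sign under quantile normalization (-0.18 and -0.20) and after subtraction of array medians (-0.27 for both). In bulk tissue, fewer cells of a type and less RNA per cell cannot be told apart.

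Further lists of this kind were assembled after the called genes had been seen, and their counts are a description only. Their signs stand against 58.7% positive over all genes. Of 74 mitochondrial ribosomal proteins 58 were negative (median -0.18), and Mrpl12 fell by 0.74 (adjusted p = 0.0163). Their means were 9.56, 9.46, 9.60 and 9.77 in the double genotype, against 9.81, 9.87, 9.74 and 9.76 in wild type, and the groups overlapped through double-genotype replicate 4. Of 30 small proteins of mitochondrial import, assembly and iron-sulphur clusters 25 were negative (median -0.38) and 5 fell, against 0.487% of all genes. These were Coa6, an assembly factor of complex IV, by 1.04 (adjusted p = 0.0296), the protease Atp23 by 0.94 (adjusted p = 0.0363), the import chaperone Timm8a1 by 0.80 (adjusted p = 0.00981), Oxld1 by 0.74 (adjusted p = 0.0231) and Glrx5, a glutaredoxin of iron-sulphur clusters, by 0.55 (adjusted p = 0.0321). Atp23 was under the filter level in 3 double-genotype arrays. The Atp23 call passed in 7 of 16 fits that left out 1 array (highest adjusted p = 0.158, without double-genotype replicate 2). Of 18 LSM and core spliceosomal proteins 13 were negative (median -0.20), and Gemin2, an assembly factor, fell by 0.59 (adjusted p = 0.0364). With array medians subtracted the small mitochondrial list had 3 calls, and the call of Gemin2 was lost. Without the 2 high-Y arrays the medians were -0.14 for the respiratory chain, -0.15 for the cytosolic ribosome, -0.10 for the mitochondrial ribosome, -0.20 for the small mitochondrial proteins and -0.09 for the LSM and spliceosomal proteins. The 34 proteasome subunits had a median of -0.02 and no call.

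**Figure D4:**
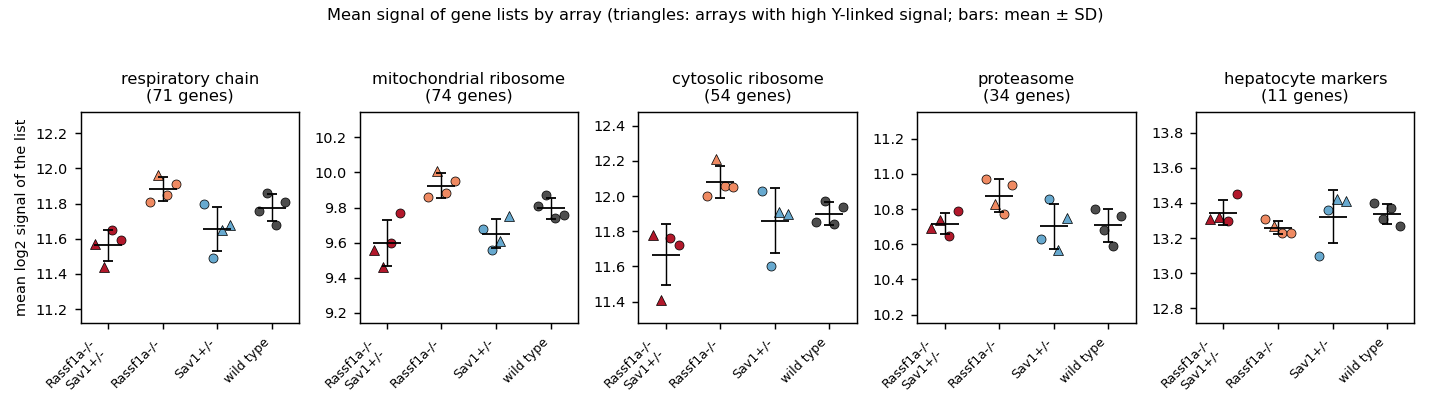
Mean log2 signal over each gene list in each array, by genotype, with the mean and SD of the 4 arrays; each panel spans 1.2 log2 units around its own centre, and triangles mark arrays of high Y-linked signal. The 71 respiratory chain subunits average 11.44 to 11.65 in the double genotype, against 11.68 to 11.86 in wild type, while the 11 hepatocyte markers overlap between the groups.

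Among the remaining higher genes, Ndrg1, a growth- and stress-responsive gene, was the steadiest. It had signals of 10.40, 10.44, 10.56 and 10.26 in the double genotype, against 8.64, 8.92, 8.78 and 8.88 in wild type, and rose by 1.61 (SE 0.15, 3.04-fold, limma adjusted p = 5.97e-05). With Arntl, Usp2 and Wee1 it was 1 of 4 named genes that were called in every alternative run. Slc30a10, a manganese exporter, rose by 1.44 (adjusted p = 0.00219), with 10.36, 11.01, 10.59 and 10.39 against 8.86, 9.58, 9.28 and 8.87 in wild type. Ddc, which decarboxylates aromatic amino acids, rose by 1.16 (adjusted p = 0.000739), with 10.26, 10.76, 10.42 and 10.26 against 9.18, 9.61, 9.09 and 9.17 in wild type. The arrays of both genes were apart, and double-genotype replicate 2 was the highest for each. Ppp1r3c, which targets a phosphatase to glycogen, rose by 1.07 (adjusted p = 0.0370) and was the only call of 18 glycogen genes. The Ppp1r3c call passed in 7 of 16 fits that left out 1 array (highest adjusted p = 0.167, without double-genotype replicate 2). It was lost when array medians were subtracted, a setting in which 17 of the 85 named genes lost their call, among them Ern1 and Angptl4. Gldc, of the glycine cleavage system, rose by 0.85 (adjusted p = 0.0128). Ern1, the IRE1 alpha sensor of the unfolded protein response, rose by 0.63 (adjusted p = 0.0370), a call that passed in 5 of 16 fits that left out 1 array (highest adjusted p = 0.167, without double-genotype replicate 2). In its list of 22 genes 20 were positive, against 58.7% of all genes, with a median of 0.34. Sdf2l1, of the endoplasmic reticulum, was at 0.87 (adjusted p = 0.117).

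Further called genes that were higher had varied roles. Eps8l2, linked to actin signalling, rose by 1.5 (adjusted p = 0.0157), Syne1, a nuclear envelope linker, by 1.01 (adjusted p = 0.0121), Mical2, an actin oxidase, by 0.86 (adjusted p = 0.00501) and Septin9 by 0.75 (adjusted p = 0.00833). Cldn1, a tight junction claudin, had 12.04, 12.44, 12.18 and 11.97, against 11.14, 11.18, 10.91 and 11.15 in wild type, and rose by 1.06 (SE 0.17, adjusted p = 0.00587). Denn2b, an activator of Rab proteins, rose by 1.33 (adjusted p = 0.00219), Dtx4, a ubiquitin ligase of the deltex family, by 1.10 (adjusted p = 0.000739) and Asap2, which acts on ARF proteins, by 1.10 (adjusted p = 0.00707). Asap2 was under the filter level in 3 wild-type arrays, so its size is uncertain. The ubiquitin ligases Rnf125 and Nedd4l rose by 1.08 (adjusted p = 0.0170) and 0.75 (adjusted p = 0.0117), and the signalling adaptor Tab2 by 0.91 (adjusted p = 0.0163). Mad2l2, a subunit of a translesion polymerase, rose by 0.96 (adjusted p = 0.0126).

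The remaining lower genes spanned signalling, membrane lipids and metabolism. Unc79, part of a sodium leak channel complex, had 5.16, 3.91, 5.05 and 6.71 in the double genotype, against 8.03, 7.64, 8.20 and 7.82 in wild type, and fell by 2.71 (SE 0.58, adjusted p = 0.0364). Its double-genotype signals were under the filter level, so its size is uncertain, and the call passed in 8 of 16 fits that left out 1 array (highest adjusted p = 0.165, without double-genotype replicate 2). Nrg4, a neuregulin, had 7.36, 7.04, 7.93 and 8.79, against 9.92, 9.59, 9.60 and 9.69 in wild type, and fell by 1.92 (SE 0.41, adjusted p = 0.0357). It was lowest, and under the filter level, in the 2 high-Y arrays, and its difference was -1.34 without them. The kinases Map2k6 and Mknk2 fell by 1.17 (adjusted p = 0.0162) and 0.97 (adjusted p = 0.0231), and St3gal5, which makes the ganglioside GM3, by 1.11 (adjusted p = 0.0370). Map2k6 was under the filter level in 3 double-genotype arrays, so its size is uncertain. St3gal5 was at -0.63 without the 2 high-Y arrays. The St3gal5 call passed in 6 of 16 fits that left out 1 array (highest adjusted p = 0.163, without double-genotype replicate 2). Alpl, the tissue-nonspecific alkaline phosphatase, fell by 0.97 (adjusted p = 0.00658) and Rnf213, a large ubiquitin ligase, by 1.19 (adjusted p = 0.0321). Atg4d, an autophagy protease, had 9.04, 9.06, 9.02 and 9.40, against 10.03, 9.94, 10.08 and 9.82 in wild type. It fell by 0.84 (SE 0.12, adjusted p = 0.00268), the only call of 31 autophagy genes.

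**Figure D5:**
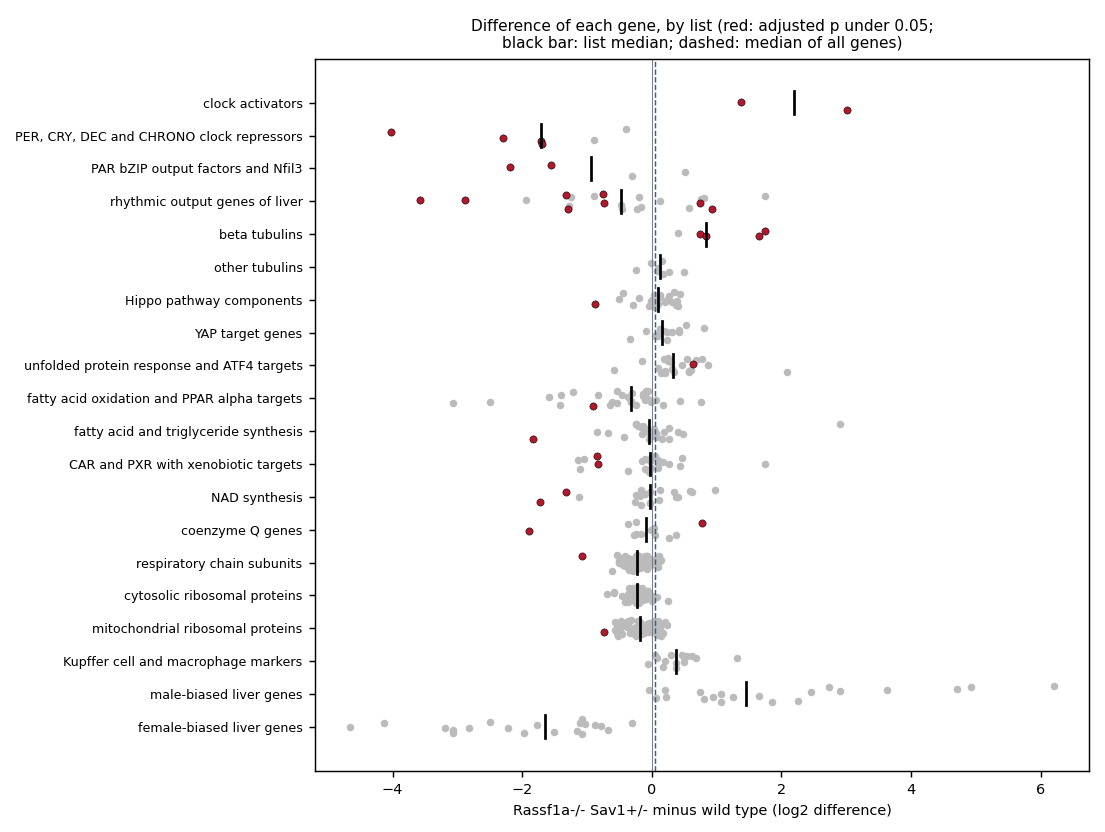
Each point is a tested gene of a list, placed by its log2 difference between the double genotype and wild type; red points passed limma's test at adjusted p under 0.05, black bars are list medians and the dashed line is the median of all genes, 0.051. Red points gather in the clock and beta tubulin lists. The lists were chosen with earlier results of these data known, so where the red points fall is a description only. The male- and female-biased lists have medians far from 0 with no call. The respiratory chain and ribosomal lists sit slightly to the left (medians of -0.23, -0.23 and -0.18).

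Many lists held no called gene in limma's test of the double genotype against wild type, against 1793 of all genes at an unadjusted p under 0.05. With 0.821% of all genes called, no call is near that share for lists this short. Lists without a call included gluconeogenesis and glycolysis (19 genes, median 0.00), the urea cycle (7 genes, -0.02), NRF2 targets (16 genes, -0.02), heat shock chaperones (16 genes, -0.12, or -0.06 without the 2 high-Y arrays), immediate early genes (14 genes, -0.05), interferon-stimulated genes (16 genes, 0.03) and acute phase genes (22 genes, 0.07). Of 21 cell cycle and DNA replication genes Wee1 alone passed. The 11 hepatocyte markers had a median of -0.02, and means of 13.30 to 13.45 in the double genotype against 13.27 to 13.40 in wild type.

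No marker of another cell type in the lists passed, which for lists this short is near the 0.821% called over all genes. Some of these lists had medians above that of all genes. Of 15 Kupffer cell and macrophage markers 14 were positive, against 58.7% of all genes, with a median of 0.38. Their mean was 10.70, 10.16, 9.91 and 9.87 in the double genotype, against 9.76, 9.51, 10.26 and 9.49 in wild type. The groups overlapped, replicate 1 was the highest double-genotype array and the median was 0.12 without the 2 high-Y arrays. The 12 endothelial markers had a median of 0.27, and the 7 measured T, B and NK cell markers one of 0.55, with a mean of 8.87 in double-genotype replicate 1 against 7.72 to 8.19 in wild type. Without the 2 high-Y arrays these medians were 0.30 and 0.27. The 3 erythroid markers had a median of 1.11, or 0.33 without those arrays, and the 2 neutrophil markers one of -0.31, or 0.22. The 11 stellate, 3 cholangiocyte, 5 adipocyte and 6 pancreas and gut markers had medians of 0.09, 0.03, 0.07 and 0.10, the last at -0.12 without those arrays. Zap70, a T cell kinase outside those lists, fell by 0.91 (adjusted p = 0.0439) and was at -0.58 without the 2 high-Y arrays. The Zap70 call passed in 6 of 16 fits that left out 1 array (highest adjusted p = 0.179, without double-genotype replicate 2). Whether these cells took part in the calls was not tested.

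Rassf1a-/- livers, which share the loss of Rassf1a, were compared with the double genotype directly since they differ by the lost Sav1 copy. Limma called 1 gene of 13152 (0.0076%), and 1934 had an unadjusted p under 0.05. Lrrc51 had signals of 7.03, 6.80, 7.17 and 7.57 in the double genotype, against 8.15, 8.20, 8.32 and 8.26 in Rassf1a-/-, with no overlap, and fell by 1.09 (SE 0.16, adjusted p = 0.0329). The call was lost without any single double-genotype replicate 1, 2 or 3, any single Rassf1a-/- array or any single wild-type array, each giving 0 genes, while 123 genes passed without Sav1+/- replicate 2 and 209 without double-genotype replicate 4. The next by p did not pass, sharing an adjusted p of 0.0613, and all had negative differences: Guk1, guanylate kinase, at -0.77, Spopl, a ubiquitin ligase adaptor, at -1.08, Zswim7 at -0.93 and Higd1a, a respiratory chain factor, at -0.94. Ndufb2 and Sav1 had the same adjusted p, at -0.99 and -0.96.

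Clock and tubulin genes did not pass between these 2 genotypes, within wide intervals. Arntl differed by -0.36 (95% interval -1.08 to 0.36), Ciart by 0.15 (-0.91 to 1.21), Usp2 by 0.33 (-0.37 to 1.03) and Tubb2a by -0.33 (-0.89 to 0.24). Arntl had signals of 9.41, 10.15, 9.97 and 9.34 in the double genotype, against 10.08, 10.03, 9.95 and 10.25 in Rassf1a-/-. Usp2 had 7.93, 7.08, 7.39 and 9.38 in the double genotype, against 7.53, 7.66, 7.79 and 7.47 in Rassf1a-/-, and the groups overlapped for both genes. For the subunit lists, the median difference from Rassf1a-/- was -0.30 for the respiratory chain, -0.41 for cytosolic ribosomal proteins and -0.34 for mitochondrial ones, against a median of 0.074 over all genes. With array medians subtracted, which moved the median of all genes to -0.033, those list medians were -0.41, -0.51 and -0.45. Rassf1a-/- livers themselves lay above wild type in these lists, with medians of 0.10, 0.18 and 0.14 in the same order. The median over all genes between Rassf1a-/- and wild type was -0.012. Coa6 differed by -0.78 (adjusted p = 0.114) and Timm8a1 by -0.52 (adjusted p = 0.109), while Ndufb2 had 10.63, 10.84, 10.58 and 11.24 in Rassf1a-/- livers, near its wild-type signals.

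Against Sav1+/- livers, which share the lost Sav1 copy, limma called 110 genes (0.836%), 88 higher (0.669%) and 22 lower (0.167%) in the double genotype. Arntl was the highest by size at 3.01 (adjusted p = 0.000637), with 9.72 ± 0.40 in the double genotype and 6.71 ± 0.69 in Sav1+/- (SD, n = 4 each). Chka followed at 1.73 (adjusted p = 0.00239), Cyp8b1 at 1.65 (adjusted p = 0.00696), Tubb2a at 1.57 (adjusted p = 0.0108), the planar polarity cadherin Celsr1 at 1.5 (adjusted p = 0.00680), Tubb2b at 1.47 (adjusted p = 0.0199), Rfx4 at 1.44 (adjusted p = 0.00394) and Pdk4, which restrains pyruvate oxidation, at 1.38 (adjusted p = 0.0312). Ciart led the lower genes at -3.64 (adjusted p = 0.00239), before Usp2 at -2.98, Dbp at -2.17, Wee1 and Coq10b at -1.94, Per3 at -1.78, Ifi27l2a, an interferon-induced gene, at -1.58 and Rnf213 at -1.55. Ifi27l2a differed from wild type by 1.27 in Sav1+/- and by -0.30 in the double genotype (adjusted p = 0.674). Cyp8b1, Celsr1, Rfx4 and Pdk4 were not called between the double genotype and wild type. In Sav1+/- they differed from wild type by -0.56, -0.74, -0.64 and -0.62. Sav1 was level between the double genotype and Sav1+/-, at 0.02 (adjusted p = 0.979). The count depended on single arrays, being 479 without Sav1+/- replicate 2, 62 and 59 without its replicates 1 and 3, 70, 27 and 42 without double-genotype replicates 1, 2 and 3, and 66 and 67 without Rassf1a-/- replicates 1 and 4. Without the 2 high-Y double-genotype arrays 7 genes passed.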

How the data were processed

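The authors deposited log2 signals per probe set and array, and per the submitters' processing notes the software was Affymetrix Expression Console. Neither its version nor the normalization is named in the sources used here. Of 35556 probe sets, the 21789 naming exactly 1 gene were used, with symbols updated through RefSeq (21698 matched). Probe sets had to reach the 40th percentile of the array on 4 or more arrays, and the brightest per gene was taken. The fit used lmFit and eBayes of limma 3.58.1 in R 4.3.3, on all 16 arrays together, 1 mean per genotype, leaving 12 residual degrees of freedom, two-sided, adjusted by Benjamini-Hochberg over all 13152 genes. The pipeline was tested on simulated data. The number of arrays limits precision. Errors are limma's SE or the SD of 4 arrays.

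Named genes were the 40 largest rises and 40 largest falls among called genes whose groups did not overlap, called members of the gene lists, up to 4 members per list by p, Sav1, Rassf1, Tbk1 and the beta tubulins. For Rassf1a-/- the 5 smallest p and for Sav1+/- up to 10 per direction were taken. Bhlhe40, Cry2, Mrpl12, Oxld1, Glrx5, Gemin2 and Tmie were chosen after their values were seen. Members and lists were chosen with earlier results of these data known. Alternatives covered filters, probe sets, scaling, array weights, Y-linked signal and left-out arrays.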

Additional observations from a re-analysis of the deposited data

Results flagged for a closer look

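Among 170 sets of 4 arrays (85 named genes in the double genotype and in wild type), 7 had an array further from the other 3 than Dixon's 95% limit allows, where chance flags about 5%. In the double genotype, Atg4d was high in replicate 4 at 9.40 (others 9.02 to 9.06), Nampt in replicate 4 at 10.14 (9.60 to 9.68) and Tab2 in replicate 2 at 11.58 (11.16 to 11.22). In wild type, Clock was high in replicate 2 at 9.86 (9.51 to 9.57), Klf13 in replicate 4 at 10.81 (10.24 to 10.34) and Ndufb2 in replicate 2 at 11.27 (10.76 to 10.84), and Cldn1 was low in replicate 3 at 10.91 (11.14 to 11.18).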

How the results depend on the processing

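No paired analysis was possible because no replicate number stands in the labels. Against wild type, 108 genes were called; the count was 56 without a filter, 176 with a filter at the 60th percentile, 165 with quantile normalization, 165 with a trended and robust prior, 1231 with array weights, 61 with mean Y-linked signal as a covariate, 6 without all 5 high-Y arrays and 8 without the 2 in the double genotype, and 39 to 209 when 1 array was left out. Against Rassf1a-/-, 1 gene was called; the count was 55 at the 60th percentile, 74 with array medians subtracted, 68 with a trended and robust prior and 1979 with array weights. It was 0 by limma without a filter, with quantile normalization, without the high-Y arrays, without the 2 in the double genotype and with only the compared genotypes (395 to 2564 genes at an unadjusted p under 0.05), and 0 to 209 when 1 array was left out. Against Sav1+/-, 110 were called; the count was 53 without a filter, 185 at the 60th percentile, 50 with array medians subtracted, 55 with array weights, 173 with a trended and robust prior, 173 with the covariate, 7 without the 2 high-Y double-genotype arrays, 1 with only the compared genotypes and 0 by limma without all high-Y arrays (1144 at an unadjusted p under 0.05), and 27 to 479 when 1 array was left out. The cause of these shifts was not tested, beyond the fewer arrays or other genes that some settings use. Of the 82 called genes named by rule, 31 passed in all 16 fits that left out 1 array. Of the named genes Tbk1 alone changed sign, at 0.04 with the covariate, and ranged from -0.13 without double-genotype replicate 4 to 0.15 without replicate 3, with 0.08 without wild-type replicate 4.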
